A study of Mus musculus with 5 samples.

Results

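The genes C1qa, C1qb, C1qc, C2, C3, C4b, Cfb, Cfp and C3ar1, which encode components and regulators of the complement system and the receptor of a fragment, were followed through mouse skin by symbol. All 9 of 9 were found among the 31053 genes counted in each of 5 single-cell libraries, and 43 other complement genes on wider lists served as their surroundings. Each library was 1 group. Dermis and epidermis came from untreated wild-type C57BL/6 mice of 10 weeks, and a further dermis from wild-type mice of the same age that received imiquimod on the ear for 5 days. Imiquimod is a TLR7 agonist, and its cream induces psoriasis-like inflammation. The remaining libraries came from K5. Pp6fl/fl mice without imiquimod: non-lesional epidermis at 10 weeks and whole skin with lesions at 18 weeks. K5 names the keratin 5 promoter, which is active in basal keratinocytes, and Pp6 is protein phosphatase 6, so the model is aimed at the epidermis and not at the macrophages and fibroblasts that held most of the RNA described here. Tissue layer, age and genotype or treatment differed together between several of these libraries and cannot be told apart. Since every group is 1 library, differences between groups could not be checked against replicates and no p-value is given.

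The libraries held between 518 and 4765 cells after filtering and between 2925165 and 38036179 UMIs in those cells (unique molecular identifiers, each counting 1 captured transcript). Levels are counts per 1000000 UMIs of a cell class in a library (CPM), with exact Poisson 95% intervals in square brackets that cover counting error only. A ratio between libraries carries an exact conditional binomial 95% interval, and a gene is called by size alone, higher or lower, if that whole interval lay beyond 1.5-fold. Classes were taken as macrophages and monocytes, T cells and so on from marker genes, without any complement gene. In the macrophages and monocytes, the 14 markers of that list summed to 19264, 16297 and 21751 CPM in the untreated dermis, imiquimod dermis and lesional skin, with none at 0. In the lesional library 736 cells carried Xist without Y-linked UMIs and 1079 the reverse, so it held cells of more than 1 animal, while the other libraries had 0 or 1 cell with Xist alone. Ppp6c, the catalytic subunit of protein phosphatase 6, stood at 80.3, 72.2 and 52.1 CPM in keratinocytes of the untreated epidermis, non-lesional epidermis and lesional skin. A 3′ count that may lie outside the deleted part is no check of the genotype. The lesional library shared no cell barcode with any other, and the remaining pairs shared 1 to 22.

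Complement is a cascade of plasma and tissue proteins that tags particles for uptake and recruits leukocytes. C1q, built from the products of C1qa, C1qb and C1qc, recognises antibody-coated or otherwise altered surfaces and starts the classical pathway, in which C4 and C2 are cleaved to form an enzyme that cleaves C3. Factor B (Cfb) forms the corresponding enzyme of the alternative pathway and properdin (Cfp) stabilises it. C3ar1 encodes the receptor for C3a, the small fragment released from C3. The liver supplies most circulating components, whereas C1q is made largely by tissue macrophages.

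The genes lie in a few places of the mouse genome (mm10), all on the minus strand and all protein coding. C1qa (chr4:136895917-136898803), C1qb (chr4:136880129-136886187) and C1qc (chr4:136889804-136893065) sit side by side within 18675 bases. Cfb (chr17:34856374-34862518) is separated by 85 bases from C2 (chr17:34862604-34898265), and C4b (chr17:34728380-34743882) lies on the same chromosome. C3 is at chr17:57203970-57228136, Cfp at chrX:20925454-20931555 and C3ar1 at chr6:122847138-122856161. The model Gm20547 overlaps C2 and Cfb on the same strand and had 0 UMIs in every class, so reads shared with it may have been lost and the counts of C2 and Cfb are uncertain. C4b has a near-identical neighbour, C4a, not analysed here, and its counts are uncertain for that reason.

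Promoters of 5 of the 9 genes were found in RefSeq's table (GRCm38.p6). Those of C1qb, C1qc and C3 are shown because the C1q genes were lower together, and C3 higher, in macrophages of the imiquimod dermis than of the untreated dermis. Each is the 250 bases before the start site on the gene's strand, 5′ to 3′. Capitals mark the PU.1 core GAGGAA in C1qb (chr4:136886201-136886450, first base at -30), its reverse complement in C1qc (chr4:136892915-136893164, at -193), and the C/EBP motif TTGCNNAA in C3 (chr17:57228137-57228386, at -45).
C1qb: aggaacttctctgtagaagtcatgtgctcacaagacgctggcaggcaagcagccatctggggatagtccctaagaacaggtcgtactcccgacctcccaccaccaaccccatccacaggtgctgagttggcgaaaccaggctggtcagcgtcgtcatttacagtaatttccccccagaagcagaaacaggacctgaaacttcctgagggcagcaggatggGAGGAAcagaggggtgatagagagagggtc
C1qc: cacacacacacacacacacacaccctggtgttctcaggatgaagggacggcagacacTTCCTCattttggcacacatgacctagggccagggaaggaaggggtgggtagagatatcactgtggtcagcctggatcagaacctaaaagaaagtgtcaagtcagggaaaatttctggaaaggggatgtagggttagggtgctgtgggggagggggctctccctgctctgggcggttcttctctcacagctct
C3: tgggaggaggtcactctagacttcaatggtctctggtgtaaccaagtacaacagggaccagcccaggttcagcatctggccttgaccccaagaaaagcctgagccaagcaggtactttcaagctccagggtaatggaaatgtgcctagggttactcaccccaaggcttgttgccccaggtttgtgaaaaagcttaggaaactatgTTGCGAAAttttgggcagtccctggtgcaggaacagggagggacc
The RefSeq start of C1qc lies inside the longer mm10 gene model. Searched on both strands, GAGGAA was present in 23.25% of the 32851 promoters of the same length and TTGCNNAA in 9.564%. The MAF pattern TGCTGA was in C1qb and C3 and in 16.08% of all promoters. An NF-kB pattern was in all 3, in places overlapping itself on the other strand, and in 45.8% of all. Patterns for AP-1, STAT and interferon response elements were in none of the 3. The promoters found for C3ar1 and Cfp are not shown and held neither GAGGAA nor TTGCNNAA. C3ar1, which was also lower in imiquimod than in untreated macrophages, had an AP-1 match at -22. These matches describe letters and not bound sites.

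**Figure D1:**
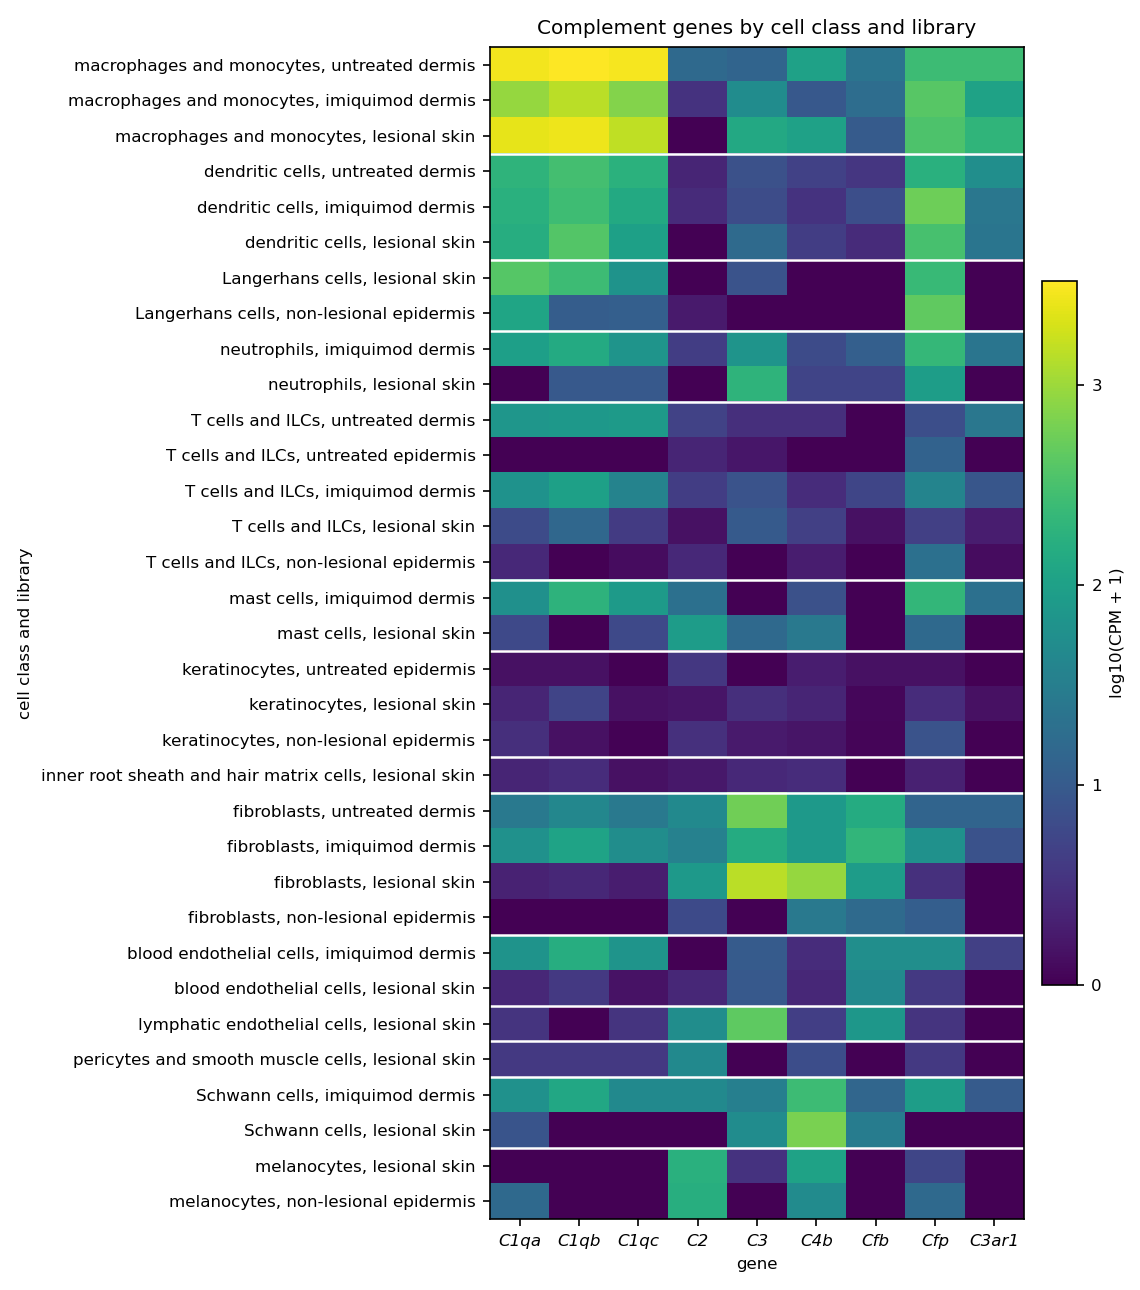
Level of each complement gene, as the log10 of CPM + 1 (colour), in every cell class with at least 20 cells (rows, by class and library). The C1q genes are brightest in macrophages and monocytes, C3 and C4b in lesional fibroblasts, and the keratinocyte rows are dark throughout.

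Macrophages and monocytes held nearly all C1q RNA. They gave 94.5%, 91.7% and 93.7% of the C1qa UMIs in the untreated dermis, imiquimod dermis and lesional skin, from 236, 2408 and 248 cells. C1qa stood at 2871 CPM [2776, 2969] in untreated dermis, 908 [895, 921] in the imiquimod dermis and 2460 [2401, 2520] in the lesional skin. C1qb stood at 3307 CPM [3206, 3412], 1427 [1411, 1443] and 2732 [2670, 2794] in the same order. C1qc stood at 3002 CPM [2905, 3101], 743 [732, 755] and 1523 [1476, 1570]. For each chain the imiquimod library was lowest and the untreated library highest, and no intervals overlapped.

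Against the untreated dermis, the imiquimod macrophages and monocytes were lower in C1qa by 3.16-fold (95% interval 3.05 to 3.28), in C1qb by 2.32-fold (2.24 to 2.40) and in C1qc by 4.04-fold (3.89 to 4.19). In the lesional skin only C1qc was called lower than in the untreated dermis, by 1.97-fold (1.89 to 2.06), while C1qa and C1qb were lower by 1.17-fold and 1.21-fold and were not called. Among the lesional macrophages, the 42 cells with Xist alone had 1756 CPM of C1qa and 1300 of C1qc, and the 115 with Y-linked UMIs alone had 2925 and 1789. Both subsets stood above the imiquimod library.

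The lower C1q of the imiquimod library went with a different make-up of the class. Of the 236 cells of the untreated dermis 208 fell in 1 cluster, cluster 9, whose leading genes other than C1q were Ccl8, F13a1, Cd163, Pf4, Mrc1 and Folr2. Of the 2408 imiquimod cells 75 fell there, while 1270 lay in cluster 0 (Aif1, Clec4a2, Ms4a7), 965 in cluster 1 (Chil3, Plac8, Ly6c2) and 98 in the cycling cluster 22. The lesional cells divided into 125 of cluster 9 and 100 of cluster 1, with 23 in the others. Within cluster 9, C1qa was 3080, 2538 and 4414 CPM in the untreated, imiquimod and lesional libraries, C1qb 3490, 3554 and 4839, and C1qc 3219, 2369 and 2707. No chain was called between the imiquimod and untreated libraries there; of all 9 members Cfp was called higher and C4b and C3ar1 lower, where 5.07% and 12.0% of 7468 measured genes were called. Cluster 1 held far less: in the imiquimod dermis 112, 214 and 92.7 CPM of C1qa, C1qb and C1qc, and in the lesional skin 60.5, 134 and 54.4. Cluster 0 of the imiquimod dermis lay between, at 1266, 1988 and 998 CPM. In cluster 0, which had 22 untreated cells, 0 of 7 measured members were called between the imiquimod and untreated libraries, where 1.10% of 7652 genes were called higher and 3.79% lower. Values within single clusters were added after the data had been seen.

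Cell by cell, the 3 libraries had different shapes. The C1q genes made up a median of 0.848% of a cell's UMIs in untreated dermis, 0.0541% in the imiquimod dermis and 0.208% in the lesional skin. The 10th and 90th percentiles were 0.287% and 1.70% in the untreated dermis, 0% and 0.770% in the imiquimod dermis, and 0% and 1.93% in the lesional skin. The share of cells above 0.5% was 74.2%, 18.8% and 41.9%. Untreated cells were thus mostly above that level and imiquimod cells mostly below it, while lesional cells spread from 39.9% with no C1q UMI to those above 0.5%, with the rest between. A C1q UMI was found in 97.0%, 85.5% and 60.1% of these cells, against 39.4%, 64.2% and 4.12% of T cells and ILCs (innate lymphoid cells) in the same libraries, which should lack the genes. Median depths were 4484, 7547.5 and 10037 UMIs in the macrophages and 3147.5, 5322 and 4365 in the T cells. After thinning each cell to 1000 UMIs (21, 84 and 10 shallower cells left out), 95.8%, 54.0% and 55.0% of the macrophages and monocytes held a C1q UMI.

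**Figure D2:**
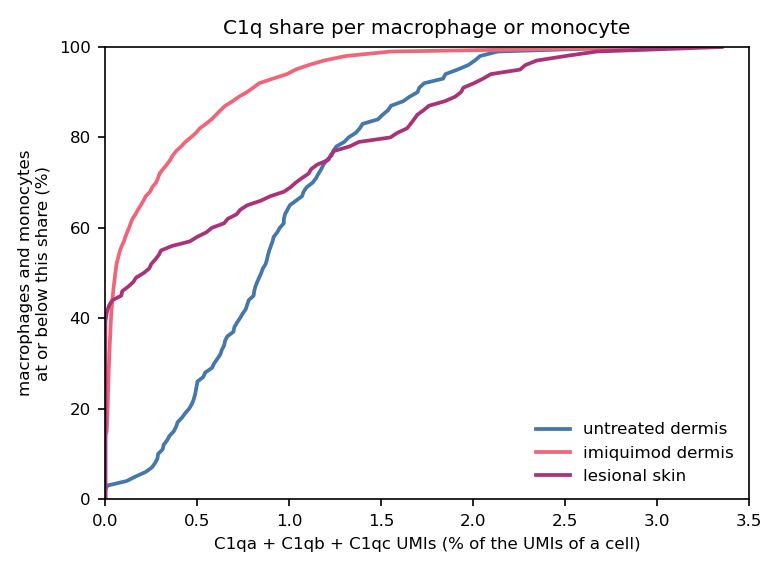
Cumulative share of macrophages and monocytes (vertical axis, %) at or below a given share of C1qa, C1qb and C1qc UMIs among all UMIs of the cell (horizontal axis, %), 1 line per library. The lesional line starts at 39.9% of cells with no C1q UMI and then crosses the untreated line, and the imiquimod line rises early, with 18.8% of cells above 0.5%.

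The balance of the 3 chains also differed between libraries. Because these 3′ counts give 1 UMI per transcript end, their shares do not scale with transcript length. In macrophages and monocytes of the untreated dermis, C1qa, C1qb and C1qc gave 31.3%, 36.0% and 32.7% of the C1q UMIs (exact Clopper-Pearson 95% interval of the C1qc share 31.8% to 33.6%). In the imiquimod dermis they gave 29.5%, 46.4% and 24.1% (C1qc 23.8% to 24.5%), and in the lesional skin 36.6%, 40.7% and 22.7% (C1qc 22.1% to 23.3%). The smaller C1qc share held within cluster 9, at 32.9% in untreated dermis, 28.0% in the imiquimod dermis and 22.6% in the lesional skin. Within cluster 0 the C1qc share was 28.0% (23.7% to 32.5%) in the 22 untreated cells and 23.5% (23.1% to 23.9%) in the imiquimod cells. These intervals overlapped, and the C1qb share there was 46.7% and 46.8%. The part of cluster make-up in the balance of the whole class was not tested. Neutrophils of the imiquimod library showed 31.7%, 46.7% and 21.6%, and the source of their C1q UMIs was not tested.

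Langerhans cells, the macrophage-like cells of the epidermis, held mostly C1qa among their C1q UMIs. In the non-lesional epidermis 149 of 176 C1q UMIs of the 205 Langerhans cells were C1qa (84.7%, exact interval 78.5% to 89.6%), giving 115 CPM of C1qa [97.0, 135], 10.0 of C1qb and 10.8 of C1qc. C1qa was found in 68 of these cells (33.2%), and 54 of them held C1qa with neither other chain. In the same library C1qa was found in 0.532% of T cells and ILCs (1.51 CPM), at median depths of 7012 UMIs in the Langerhans cells and 3648.5 in the T cells. No macrophage was found among the 2807 cells of that library, where the floor of 3 cells would be a share of 0.107%. The 5 cells richest in C1q held 62 of the 176 UMIs, and without them C1qa still made up 89.5%. Langerhans cells supplied 79.3% of all C1qa UMIs of the non-lesional epidermis. Keratinocytes of that library had 31 of 39 C1q UMIs as C1qa (79.5%, 63.5% to 90.7%), an interval that overlapped that of the Langerhans cells, at 2.47 CPM of all C1q.

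The 42 Langerhans cells of the lesional skin had 386 CPM of C1qa [336, 440], 260 of C1qb and 63.7 of C1qc, and C1qa made up 54.4% of the C1q UMIs (49.3% to 59.3%). C1qa was 3.36-fold higher (2.72 to 4.17) and C1qb 26.0-fold higher (lower limit 14.7) than in the non-lesional epidermis, in a comparison added after seeing the data in which 9.11% of 8001 measured genes were called higher and 5.11% lower. This lesional value rests on few cells: 5 of the 42 held 251 of the 401 C1q UMIs. In the 24 lesional Langerhans cells with Xist alone, C1qa was 109 CPM and C1qc 8.85, close to the non-lesional levels. C1qb in these cells was 62.0 CPM [38.4, 94.7], above the non-lesional 10.0 [5.33, 17.1]. Of the 14 macrophage and monocyte markers, 5 were at 0 in the lesional Langerhans cells and 3 in the non-lesional ones, and the list summed to 3067 and 2336 CPM. Their part in the result was not tested.

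**Figure D3:**
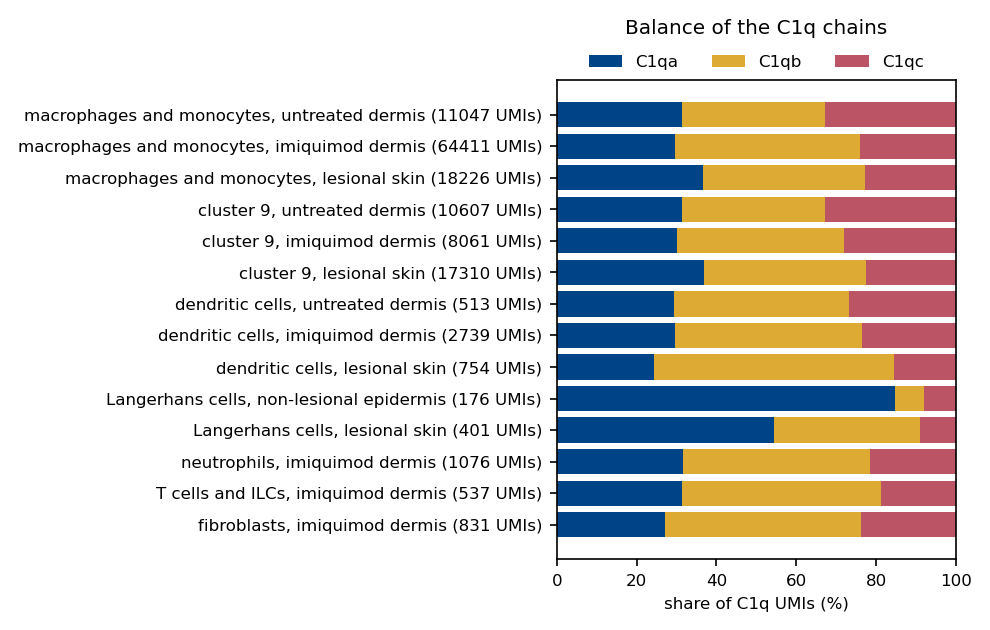
Share of C1qa, C1qb and C1qc among the C1q UMIs (%) in cell classes and in cluster 9, with the number of C1q UMIs after each name. The C1qa segment fills 84.7% of the bar of non-lesional Langerhans cells, against 29.5% to 36.6% in the macrophages and monocytes, and the C1qc segment is widest in the untreated dermis.

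C1q in the other leukocytes was lower than in macrophages and monocytes. Dendritic cells held 194, 170 and 156 CPM of C1qa in the untreated dermis, imiquimod dermis and lesional skin, but 5 cells held 332 of 513 C1q UMIs in the untreated library, 852 of 2739 in the imiquimod library and 510 of 754 in the lesional library. The macrophage and monocyte markers summed to 7334, 5348 and 8970 CPM in these dendritic cells, and their part in the C1q level was not tested. Neutrophils of the imiquimod dermis had 94.8 CPM of C1qa, against 61.9 in that library's T cells and ILCs and 0 UMIs in the 74 lesional neutrophils. Summed over the 3 chains, imiquimod neutrophils had 299 CPM and T cells and ILCs, which should lack C1q, 197 CPM. The part of free RNA in these values was not tested.

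C3, the central component that every pathway cleaves, was higher in imiquimod than in untreated macrophages and monocytes, where the C1q genes were lower, and in the lesional skin both C3 and C1q stood above the imiquimod level. C3 stood at 12.5 CPM [6.98, 20.6] in macrophages and monocytes of the untreated dermis, 49.7 [46.8, 52.9] in the imiquimod dermis and 130 [117, 144] in the lesional skin. The intervals did not overlap, and T cells and ILCs held 1.98, 6.96 and 8.99 CPM. C3 was 3.99-fold higher (2.41 to 7.16) in the imiquimod and 10.4-fold higher (6.24 to 18.8) in the lesional library than in the untreated one. The lesional level was 96.2 CPM in the cells with Xist alone and 131 in those with Y-linked UMIs alone. In cluster 9 the values were 9.23, 12.6 and 107 CPM, so C3 there was 11.6-fold higher (6.14 to 24.7) in the lesional than in the untreated library, and the imiquimod value was not called. The lesional call was lost in 2 of 9 alternative settings, after thinning and with Xist-bearing cells only (lowest log2 ratio 1.30). Between these 2 libraries 6.88% of 7916 genes measured in cluster 9 were called higher and 4.72% lower, and of the members C3 and Cfp were higher and C2 lower. In cluster 1 C3 was 99.9 CPM in the imiquimod dermis and 180 in the lesional skin, 1.81-fold higher (1.53 to 2.13), a call lost in 4 of 8 alternative settings (lowest log2 ratio 0.49), where 16.6% of 6905 measured genes were called higher and 4.42% lower. Cfb was the 1 member called lower there, at 4.03 against 21.1 CPM.

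Within the imiquimod and lesional libraries, C3 was higher in the macrophages and monocytes in which no C1q UMI was left after thinning. Among cells thinned to 1000 UMIs, imiquimod macrophages and monocytes without a C1q UMI had 85.2 CPM of C3 [68.6, 105] and those with one 39.8 [29.5, 52.5]. In the lesional skin the values were 234 CPM [151, 345] without and 61.1 [26.4, 120] with C1q. C3ar1 and C4b went the other way in the lesional cells, at 18.7 and 0 CPM without C1q and 359 and 191 CPM with it. The clusters differed along this split. Before thinning, 89% of lesional cells of cluster 1 and 2.4% of those of cluster 9 had no C1q UMI. In the imiquimod dermis C3 was 99.9 CPM in cluster 1, 25.1 in cluster 0 and 12.6 in cluster 9. The part of this make-up in the C3 difference was not tested. Neutrophils also held C3, at 65.6 CPM [57.5, 74.6] in the imiquimod dermis and 191 [139, 255] in 74 lesional cells, 2.90-fold higher (2.06 to 4.01). Of 7 members measured in neutrophils C3 was the 1 called higher, and C1qa, C1qb, C1qc and Cfp were called lower, beside 10.4% and 11.0% of 5734 measured genes.

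C4b, which encodes the complement component cleaved by the C1 complex, stood at 101.4 CPM [84.2, 121] in macrophages and monocytes of the untreated dermis, 8.41 [7.21, 9.75] in the imiquimod dermis and 103 [91.4, 116] in the lesional skin. The imiquimod value was 12.1-fold lower (9.49 to 15.3) than the untreated one, and the lesional value differed from the untreated one by less than the counting error (ratio 1.02, 0.820 to 1.27). The difference was smaller within cluster 9, at 113, 42.0 and 182 CPM, where the imiquimod value was 2.68-fold lower (1.86 to 3.94), a call lost at a 2-fold threshold. Lesional macrophages with Xist alone had 29.6 CPM and those with Y-linked UMIs alone 131. C2, the protease that joins C4, was scarce in these cells at 14.96 CPM [8.87, 23.6], 2.29 [1.69, 3.04] and 0 [0, 1.36], from 18, 48 and 0 UMIs. The 95% interval of the ratio put the lesional value at least 9.92-fold lower than the untreated one.

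C3ar1, the C3a receptor, was found mainly in macrophages and monocytes, which held 83.0%, 82.2% and 93.7% of its UMIs in the untreated, imiquimod and lesional libraries. Its levels were 255 CPM [227, 285], 106 [101, 110] and 198 [181, 215], and the imiquimod value was 2.42-fold lower (2.14 to 2.72) than the untreated one. Cluster 9 alone showed 275, 70.3 and 319 CPM, a 3.91-fold lower value (2.99 to 5.18) with imiquimod. Outside this class C3ar1 reached 53.9 CPM in untreated dendritic cells and 204 CPM in cluster 14, a cluster of 257 imiquimod cells led by Mcpt8 and Prss34 that took no class name. Langerhans cells had 0 UMIs of C3ar1 in both K5. Pp6fl/fl libraries.

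Properdin is released by myeloid cells, and Cfp was the member spread most evenly over them. In macrophages and monocytes it stood at 254 CPM [227, 284], 405 [397, 414] and 341 [319, 363] in the untreated, imiquimod and lesional libraries, and the 1.59-fold higher imiquimod value (1.42 to 1.79) was not called. In cluster 9 it was called, 1.79-fold higher (1.54 to 2.08) with imiquimod and 1.74-fold higher (1.51 to 2.0) in the lesional skin. These calls were lost in 2 of 7 and 4 of 9 alternative settings, with a lowest log2 ratio of 0.18 for lesional cells with Xist only. Dendritic cells had 168 CPM [141, 200], 554 [533, 576] and 316 [285, 350], 3.30-fold higher (2.77 to 3.96) with imiquimod than without. It was the 1 member of 5 measured that was called higher in dendritic cells, and C3ar1 the 1 called lower (2.29-fold, 1.57 to 3.29, lost in 4 of 11 alternative settings), where 6.70% of 7057 genes were called higher and 9.34% lower. The dendritic value of the lesional skin was 1.75-fold lower (1.57 to 1.96) than that of the imiquimod dermis, a call lost in 5 of 13 alternative settings, where 15.1% of 7377 genes were called higher and 4.08% lower. Langerhans cells of the non-lesional epidermis had 452 CPM [416, 490] and gave 76.7% of the Cfp UMIs of that library. Factor B was low in macrophages and monocytes, at 21.6, 17.0 and 9.21 CPM, and was not called between the imiquimod and untreated libraries (ratio 0.785, 0.527 to 1.22).

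Counted together in macrophages and monocytes, 6 of 9 members were called lower and 1 higher with imiquimod against the untreated dermis. Among all 7249 genes measured there, 19.1% were called lower and 6.65% higher. The members' median log2 ratio, with 5 CPM added, was -1.23, against -0.27 for all measured genes. Between lesional skin and untreated dermis, 1 of 9 members was called higher and 2 lower, where 8.81% and 5.68% of 7730 measured genes were called. The members' median was -0.28 against 0.12. Lesional skin against imiquimod dermis had 8 measured members, of which C1qa, C1qb, C1qc, C3, C4b and C3ar1 were called higher and none lower. The background there was 30.1% higher and 6.21% lower of 7423, with medians of 0.98 and 0.42. After rescaling by the median ratio of all genes, the calls of C1qb, C1qc and C3ar1 in that last comparison were lost and 1 member was called lower. Each of these 3 libraries enters 2 of these comparisons.

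**Figure D4:**
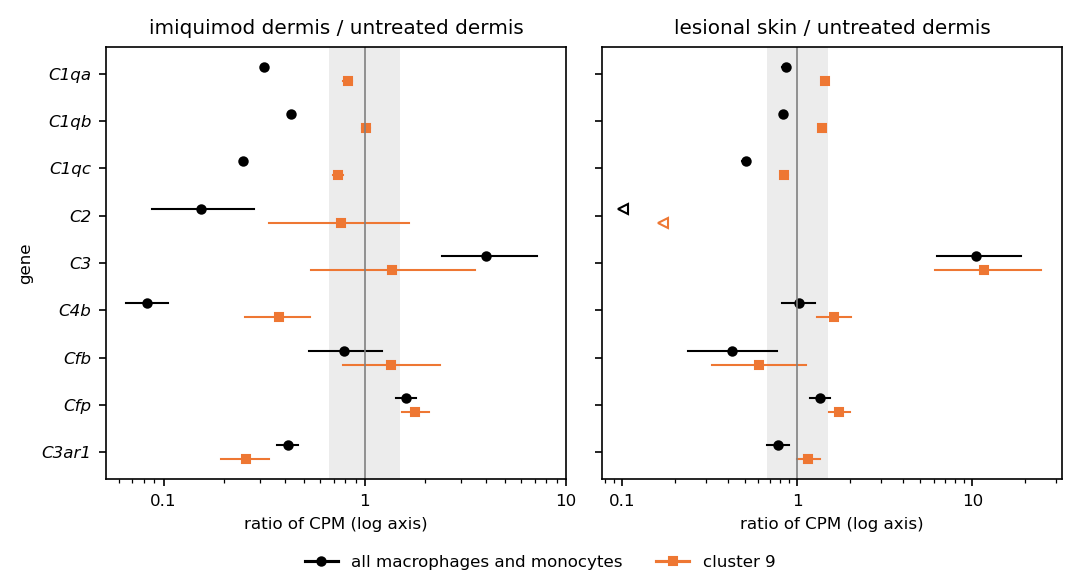
Ratio of CPM (log axis) of each gene in the imiquimod dermis (left) and the lesional skin (right) over the untreated dermis, for all macrophages and monocytes (circles) and for cluster 9 alone (squares), with exact 95% intervals. Open triangles mark the upper bound where the lesional count was 0, and the grey band spans 1.5-fold. The imiquimod ratios of C1qa, C1qb and C1qc lie left of the band for the whole class (0.316, 0.431 and 0.248) and inside it for cluster 9, whereas the lesional ratio of C3 lies right of it in both.

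The early components were also made by fibroblasts, and in lesional skin at high level. C3 in fibroblasts stood at 570 CPM [478, 675] in untreated dermis, 147 [135, 160] in the imiquimod dermis and 1427 [1402, 1452] in the lesional skin, from 26, 365 and 681 cells. In the untreated dermis 7 of 26 fibroblasts held all 135 C3 UMIs. None was found in the 27 fibroblasts of the non-lesional epidermis (0 CPM, upper bound 18.9). C4b stood at 80.3 CPM [48.3, 125], 78.6 [69.9, 88.1] and 925 [905, 946]. C2 stood at 46.5 CPM [23.2, 83.2], 34.6 [28.9, 41.1] and 79.1 [73.3, 85.2]. Cfb took another order, at 144 CPM [99.5, 201], 208 [193, 223] and 87.3 [81.3, 93.8]. Thus the lesional fibroblasts were highest in C3 and C4b and lowest in Cfb among these 3 libraries.

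Between lesional skin and imiquimod dermis, fibroblasts were higher in C3 by 9.71-fold (8.91 to 10.6), in C4b by 11.8-fold (10.5 to 13.3) and in C2 by 2.29-fold (1.89 to 2.78), and lower in Cfb by 2.38-fold (2.15 to 2.63). In that comparison 36.2% of 8956 measured genes were called higher and 9.44% lower, and the median over all genes was 0.54. The call of C2 was lost after rescaling by that median. C1qa, C1qb, C1qc and Cfp were also called lower, but their imiquimod levels of 60.2, 109, 52.5 and 59.4 CPM stood beside 61.9, 97.8, 37.0 and 37.4 CPM in that library's T cells and ILCs. Against the untreated dermis, a comparison added after seeing the data, C3 was 3.88-fold lower (3.19 to 4.69) with imiquimod, and lesional fibroblasts were 2.5-fold higher (2.11 to 2.99) in C3 and 11.5-fold higher (7.38 to 19.2) in C4b. Among 8273 and 9107 measured genes, 10.7% were called lower and 4.42% higher in the first, and 5.80% higher and 5.28% lower in the second.

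Different fibroblast clusters held the class in the different libraries. Of the lesional fibroblasts 543 of 681 lay in cluster 7 (Clec3b, Pi16, Dpt), which also held 12 of the 26 untreated ones, and 326 of the 365 imiquimod fibroblasts lay in cluster 11 (Saa3, Mmp3, Timp1). Cluster 7 of the lesional skin had 1628 CPM of C3, 1040 of C4b, 87.6 of C2 and 95.1 of Cfb. In cluster 11 the imiquimod cells had 149 CPM of C3, 67.2 of C4b and 219 of Cfb, and the 22 lesional cells 17.6, 436 and 97.0. In a comparison of these cells added after seeing the data, C4b was 6.49-fold higher (5.07 to 8.25) and C3 8.43-fold lower (3.27 to 31.1) in the lesional skin, and Cfb was not called (ratio 0.442, 0.276 to 0.675). C1qa, C1qb, C1qc and Cfp were called lower as well, from 1 lesional UMI of C1qa and 0 of the others, and 19.5% of 8576 genes measured in cluster 11 were called higher and 4.71% lower. The difference in C3 within this cluster had the opposite direction to that over all fibroblasts. Its lesional value rests on 4 UMIs in 3 of the 22 cells, near the floor of 13.2 CPM given by 3 UMIs. The lesional C4b value rests on 99 UMIs in 6 cells. The 84 lesional cells of cluster 25 (Saa2, Rspo3, Tnn) had 8.0 CPM of C3. Of the lesional fibroblasts, those with Xist alone had 837 CPM of C3 and 310 of C4b, and those with Y-linked UMIs alone 1658 and 1127, all above the imiquimod values. Against the untreated fibroblasts the lesional call of C3 was lost in 2 of 14 alternative settings, after thinning and with Xist-bearing cells only (log2 ratio 0.55), and that of C4b in 0 of 14.

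Fibroblasts supplied 86.5% of the C3 UMIs of the untreated dermis and 93.5% of those of the lesional skin. In the imiquimod dermis macrophages and monocytes gave 54.7%, fibroblasts 29.0% and neutrophils 12.4%. C4b came mostly from macrophages and monocytes in the untreated dermis (81.3%) and mostly from fibroblasts in the lesional skin (94.6%). These shares depend on how many cells of each class a library captured, and the untreated dermis gave 26 fibroblasts.

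Among the other stromal classes, lymphatic endothelial cells of the lesional skin had 439 CPM of C3 [396, 486], 71.5 of Cfb [54.7, 91.8] and 51.6 of C2 [37.5, 69.2], but 3.52 of C4b. Blood endothelial cells had 45.9 CPM of Cfb [37.1, 56.0] in the lesional skin and 53.4 [35.8, 76.7] in the imiquimod dermis. Schwann cells, the glia of peripheral nerves, had 655 CPM of C4b [527, 804] in the lesional skin and 260 [197, 337] in the imiquimod dermis, 2.52-fold apart (1.79 to 3.57), from 28 and 42 cells. This comparison was also added after seeing the data. Among 5393 genes measured in Schwann cells 9.49% were called higher and 4.45% lower in the lesional skin. The imiquimod Schwann cells also carried 8350 CPM of macrophage and monocyte markers, against 352 in the lesional ones, where 11 of the 14 markers were at 0. Melanocytes showed the highest C2, at 168 CPM [132, 211] in the lesional skin and 162 [112, 228] in the non-lesional epidermis, with intervals that overlapped. Melanocytes gave 33 of the 73 C2 UMIs of the non-lesional epidermis (45.2%), and the far more numerous keratinocytes gave 33 as well.

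**Figure D5:**
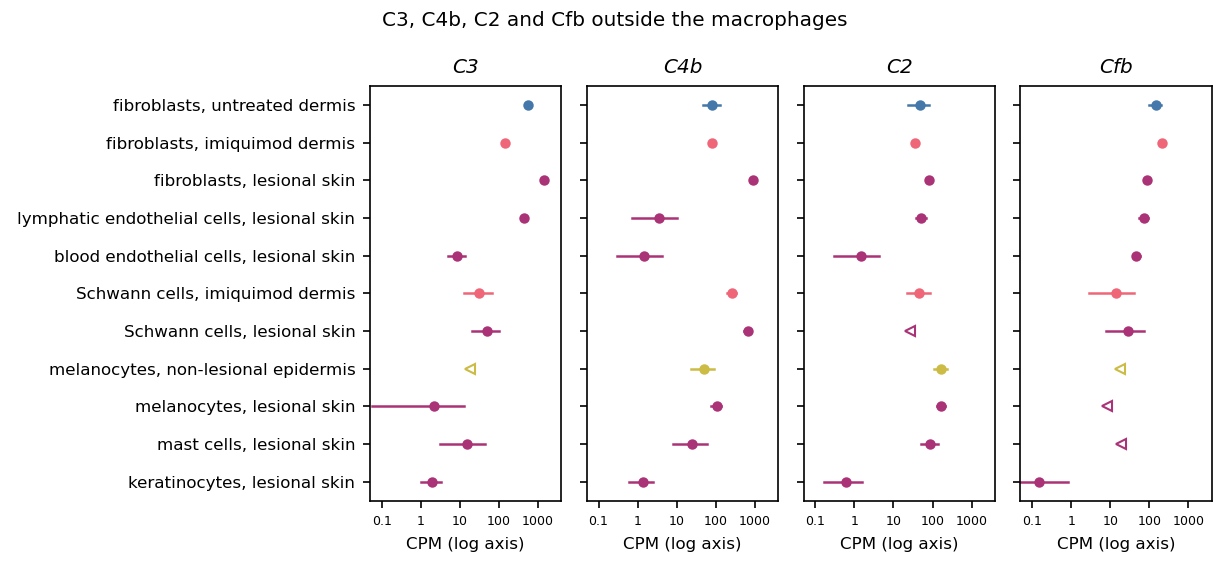
Level (CPM, log axis, 95% intervals) of C3, C4b, C2 and Cfb in classes other than macrophages, coloured by library. Open triangles mark the upper bound where the count was 0. C3 and C4b are highest in lesional fibroblasts at 1427 and 925 CPM, C2 in melanocytes at 162 and 168, and Cfb in imiquimod fibroblasts at 208.

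Keratinocytes, a class that was not limited to the basal cells in which the keratin 5 promoter is active, held this RNA at low level per UMI. C3 was at 0 CPM (upper bound 1.69) in the untreated epidermis, 0.822 in the non-lesional epidermis and 1.94 in the lesional skin. C2 was at 2.75, 2.09 and 0.596 CPM in that order. Through their number, 1580 cells, keratinocytes of the non-lesional epidermis still gave 45.2% of that library's C2 UMIs, 16.5% of its C1qa and 14.4% of its Cfp UMIs. Per UMI they had 2.09 CPM of C2, 1.96 of C1qa and 6.96 of Cfp. The T cells and ILCs of that library had 1.51, 1.51 and 19.0 CPM in the same order. The part of free RNA in these values was not tested. In both comparisons of keratinocytes 0 of 9 members reached the 10 UMIs and 10 CPM set for measurement, so nothing could be called, while 3.31% and 2.03% of 7772 genes were called higher and lower in non-lesional against untreated epidermis. Between lesional skin and non-lesional epidermis the shares were 20.8% and 11.2% of 8246.

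The wider complement lists add the members' partners. In macrophages and monocytes, Fcna, a lectin-pathway recognition protein, was 21.6-fold lower (15.9 to 29.5) with imiquimod than in the untreated dermis, at 3.73 against 80.6 CPM, and was the only measured gene of its list of 13. Of 8 other receptors 4 were measured: C5ar1 (3.56-fold, 3.18 to 3.99) and Cd93 (2.89-fold, 2.28 to 3.64) were lower, and Itgam, a chain of complement receptor 3, was 3.20-fold higher (2.56 to 4.07). None of the 8 alternative-pathway and terminal components was measured. Of 6 membrane regulators 1 was measured and it was not called. Between lesional skin and imiquimod dermis Fcna was higher (14.9-fold, 11.3 to 19.9), and 6 of 7 measured receptors were higher, beside the 30.1% of 7423 genes called higher there. Itgax, a chain of complement receptor 4, was 12.8-fold higher (10.3 to 15.9). These ratios are for the whole class, whose make-up differed. Cluster 9 held 208 of 236 cells in the untreated dermis, 75 of 2408 in the imiquimod dermis and 125 of 248 in the lesional skin. The part of this make-up in the ratios was not tested.

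Lesional fibroblasts also held more of the classical-pathway proteases and of the inhibitors than imiquimod fibroblasts. C1s1, one of the proteases of the C1 complex, was at 594 against 83.4 CPM, 7.12-fold higher (6.35 to 8.01), and C1ra at 508 against 200, 2.54-fold higher (2.35 to 2.75). Masp1, a lectin-pathway protease, was 7.23-fold higher (6.15 to 8.55), so that 3 of 3 measured genes of this list of 13 were called higher, beside 36.2% of 8956 genes. Serping1, the C1 inhibitor, stood at 2117 against 603 CPM, 3.51-fold higher (3.36 to 3.67). Clusterin (Clu) was 2.21-fold lower. Cd55, which breaks up C3-cleaving enzymes on the cell surface, was 10.7-fold higher (7.84 to 14.9), the 1 called of 2 measured membrane regulators. The lesional and imiquimod fibroblasts lay mostly in different clusters. Within cluster 11 Serping1 stood at 1111 CPM in the 22 lesional and 610 in the 326 imiquimod cells. In lesional clusters 7 and 25 it stood at 2264 and 332 CPM. The part of this make-up in the fibroblast differences was not tested. In keratinocytes Cd55 and Cd59a, an inhibitor of the membrane attack complex, were 3.69-fold and 5.59-fold lower in the lesional skin than in the non-lesional epidermis, at 5.66 against 20.9 CPM and 8.79 against 49.2 CPM. These 2 genes and Clu fell outside the naming rule and were chosen after their values were seen. The make-up of the keratinocytes also differed between the lesional and non-lesional libraries. Of the 1580 non-lesional keratinocytes 878 lay in cluster 3 and 331 in cluster 6. Of the 214 lesional ones 3 lay in cluster 3 and 164 in cluster 6. The part of this make-up in the lower Cd55 and Cd59a was not tested.

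Across the 33 class and library pairs, the genes most like the summed C1q genes by Pearson correlation of log2(CPM + 5) were Aif1 (0.943), Clec4a1 (0.923), Ms4a6c (0.920), Ctss (0.911) and Clec4a3 (0.899). For C3 the closest were Tnxb (0.771), Ptx3 (0.734) and Wisp2 (0.721), and for Cfb Fbln2 (0.848) and Fbln5 (0.820). The points share 5 libraries, and 8199 genes were searched, so these are descriptions only.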

How the data were processed

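Single-cell RNA was measured with the Chromium 3′ v3 kit after enzyme digestion and removal of dead cells by FACS, per the labels. The submitters' processing notes name CASAVA, Cell Ranger and the build mm10, and software version 3.0.2 stands in the matrices, per the file headers. The deposited values are UMI counts per gene and cell barcode with no normalization. The way cell barcodes were called is not given in the sources.

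Of 13288 barcodes, those with at least 200 genes and under 20% mitochondrial UMIs were kept. Doublets were scored per library and the top 0.8% per 1000 barcodes removed (3 to 226 per library), leaving 11575 cells. They were clustered jointly (2000 variable genes without complement genes, 30 principal components, 15 neighbours, Leiden resolution 1.0) with scanpy 1.11.5, leidenalg 0.10.2 and scipy 1.17.1 in Python 3.11.15. Of the 33 clusters 32 were named from 17 marker lists. UMIs were summed by class and library, where a class had at least 20 cells, and scaled to CPM. A gene counted as measured if both libraries together held 10 UMIs or more and either reached 10 CPM. All members were named in every class. Genes of the wider lists were named where they reached 50 CPM with an interval wholly beyond 2-fold, at most 4 per list. Results for 1 gene of these lists are not reported here. The calling step was tested on simulated Poisson counts, without spread between cells or libraries. That is the error the intervals assume, so the simulation could not show how the calls hold under such spread. The members and lists were chosen with earlier results of these data known. Nothing in the labels says how many animals gave a library. Intervals and floors cover counting error only.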

Additional observations from a re-analysis of the deposited data

Results flagged for a closer look

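C3 took opposite directions in 2 cell classes of the same pair of libraries. Between imiquimod and untreated wild-type dermis its log2 ratio, with 5 CPM added, was 1.65 in macrophages and monocytes (49.7 against 12.5 CPM) and -1.92 in fibroblasts (147 against 570 CPM), and each interval lay wholly beyond 1.5-fold. The difference between the classes was not tested, since each group has 1 library. The fibroblast value of the untreated dermis rests on 26 cells, of which 7 held C3, and the comparison of fibroblasts was added after the data had been seen. Within macrophage cluster 9, C3 was not called, at 9.23 CPM in the untreated and 12.6 in the imiquimod dermis. In cluster 0 it was not called either, at 34.4 CPM from 3 UMIs and 25.1 in that order. Of the 365 imiquimod fibroblasts 326 lay in cluster 11, while the untreated ones lay partly in cluster 7.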

How the results depend on the processing

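The 9 planned comparisons were recomputed under 14 alternative settings of the cell filter, doublets, clustering, scaling, depth, threshold and lesional cells. Of 117 counts of called members 101 stayed within 1.5 times the main count and 16 did not. For dendritic cells of the imiquimod against untreated dermis (2 calls), 4 were called at Leiden resolution 2.0, and 1 each with no doublet removal, after thinning and at a 2-fold threshold. For dendritic cells of the lesional skin against imiquimod dermis (1 call), 3 were called at Leiden resolution 2.0, 3 with the mean over cells, 3 after subtracting the T cell level, 2 with all deposited barcodes, 2 with no doublet removal, 0 after thinning and 0 at 2-fold. Macrophages and monocytes of the lesional skin against imiquimod dermis (6 calls) kept 3 at 2-fold, and neutrophils (5 calls) 2 after thinning and 2 with Y-linked lesional cells only. With no minimum of UMIs or CPM, keratinocytes gave 1 and 2 calls in place of 0. The cause was not tested. The 32 called members gave 422 log2 ratios, of which 338 stayed within the counting interval of the main value, 84 moved outside it and 0 reversed. The call was lost in 37 of them, and 17 members kept it in every setting. In comparisons added later, log2 ratios reversed for C1qc in T cells and ILCs of the imiquimod against untreated dermis (0.20 with no doublet removal and 0.17 with cells gated by markers), and in Langerhans cells of the lesional skin against non-lesional epidermis for Cfp (0.027, gated), C1qa (-0.068, Xist only) and C1qc (-0.19, Xist only). No paired analysis was possible because each group has 1 library, and no replicate could be left out for the same reason.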
